A study of Mus musculus with 4 samples.

Results

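The genes described are 10 genes of the transcription factor NF-kB and its inhibitors, chosen by name: 4 that encode its subunits (Nfkb1, Nfkb2, Rela and Relb), 4 that encode inhibitor proteins of the IkB family (Nfkbia, Nfkbie, Nfkbiz and Bcl3), and 2 that encode enzymes acting on the upstream signal (Tnfaip3 and Birc3). Of the 10, 9 had a probe set under their own symbol, 19 probe sets in all of the 45101 on the array, and 8 passed the low-level filter that 11513 of 18193 genes passed. Nfkb1 was not analysed here, and Relb was measured below the filter level. Pooled liver RNA of 2-month-old C57BL/6J mice was hybridised to 4 Affymetrix arrays, 1 for each group. E+E mice (5 pooled) received ethylbenzene, an aromatic solvent, in both a first and a second exposure. P+E mice (5 pooled) received phosphate-buffered saline (PBS) first and ethylbenzene second. E+P mice (3 pooled) received ethylbenzene first and PBS second. P+P mice (3 pooled) received PBS both times. Below, ethylbenzene arrays and PBS arrays are named by the second exposure only. E+P, of mice given ethylbenzene first, is thus a PBS array. Every ethylbenzene dose was 7 mmol per kg, given into the peritoneal cavity, the first exposure being 2 injections 24 h apart and the second following after 7 days, with livers taken 5 h later. With 1 array of pooled RNA in each group there were no replicates, no spread between animals was measured and no p-value was computed. Pool size went with the second exposure, and the effects of the 2 cannot be told apart.

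NF-kB is a family of dimers built from subunits that share a DNA-binding domain. In resting cells most dimers are held in the cytoplasm by IkB proteins, and receptors for tumour necrosis factor, interleukin-1 and bacterial products activate a kinase complex that marks these IkB proteins for destruction, which frees the dimers to enter the nucleus. Several IkB and inhibitor genes are themselves NF-kB targets, so the pathway is known for feedback, and in liver it takes part in the acute phase response and in the survival of hepatocytes. Much of this control acts on the proteins, which these arrays did not measure.

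The arrays differed in quality controls. The median signal was between 129.9 and 153.1. The geometric mean signal of the control probe sets for ribosomal RNA was 182 on E+E, 145 on P+E and 122 on E+P, against 1872 on P+P, and for Actb, a cytoskeletal control, it was 30540, 24573 and 22081 in those groups, against 8928 on P+P. The signal of the 3′ Actb control probe set was 3.77 times that of the 5′ one on E+E, 3.48 on P+E, 3.84 on E+P and 4.55 on P+P. The 3′ end thus read brighter on every array, and its part in differences between probe sets of a gene was not tested. The P+P array stood apart in these controls, and each result of P+E against P+P is given beside E+E against E+P, which does not use it. Hepatocyte markers were present on all 4 arrays, with a summed signal of 6 genes between 767920 and 1047690.

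Of the 8 genes past the filter, Bcl3 was the only one at least 2-fold higher after the second ethylbenzene exposure by both ratios. Among all genes past the filter, 6.53% were at least 2-fold higher on P+E than on P+P, 6.91% on E+E than on E+P, and 2.87% by both, so 1 gene of 8 is described by its size and not by its count. None of the 8 was at least 2-fold lower for P+E against P+P (background 6.70%, or 13.2% for either direction). For E+E against E+P, Nfkb2 and Nfkbie were at least 2-fold lower (background 6.75%), each on the brighter of its 2 probe sets only, which makes 3 of 8 in either direction (background 13.7%). The median log2 ratio of the 8 was 0.47 for E+E against E+P and 0.28 for P+E against P+P, where all genes past the filter had medians of -0.05 and -0.07. Log2 ratios are differences of log2(signal + 43.2) after quantile normalization, and they understate differences of low signals. In RNA of whole liver, more cells of a type and more RNA per cell cannot be told apart.

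**Figure D1:**
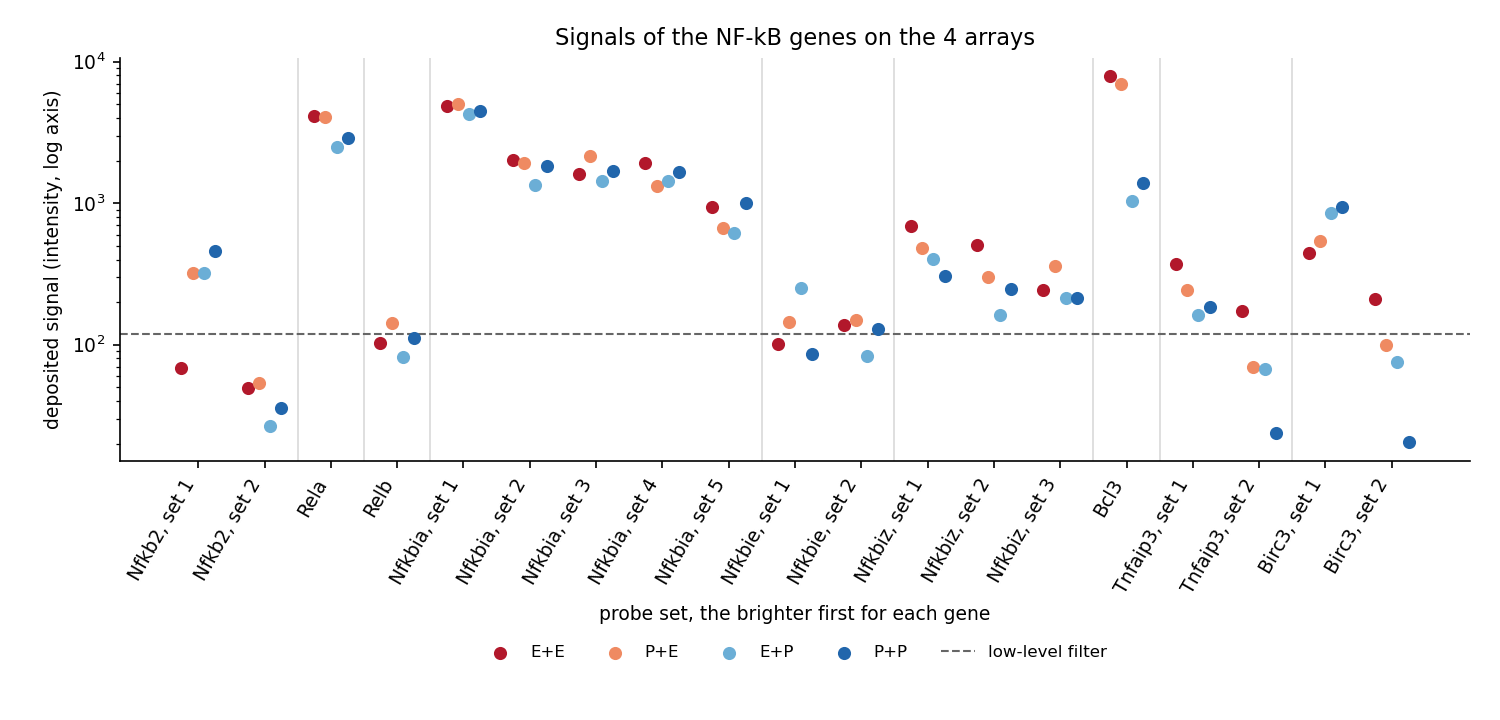
Deposited signal (intensity, log axis) of each of the 19 probe sets of the 9 measured genes, with 1 point for each array (E+E, P+E, E+P and P+P) and the brighter probe set first for each gene. The dashed line marks the filter level of 120.0, which applied to normalized signals averaged over the arrays. Bcl3 had 7920 and 6996 on the ethylbenzene arrays against 1044 and 1390 on the PBS arrays. The points of Rela and Nfkbia lie closer together. Some dimmer probe sets also spread widely, such as the second of Birc3 (20.4 to 210.1) and the second of Tnfaip3 (23.9 to 174.3). So did the first, brighter one of Nfkb2 (68.4 to 458.8).

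The DNA upstream of these genes was searched on both strands for the kappa-B consensus, which NF-kB dimers bind, and for a stricter form. The stricter form was GGG followed by any 2 bases and TTTCC, and in these genes each of its matches was also a consensus match. The sequences are from RefSeq on GRCm38.p6, where 7 of the 10 genes had an entry (Bcl3, Birc3, Nfkb2, Nfkbia, Nfkbie, Rela and Tnfaip3), and each window covered 250 bases before to 50 bases after an annotated start. The consensus was found in 7 of the 10 windows of these genes, or for 5 of the 7 genes, against 8.46% of all 32851 windows and 9.55% of all 27025 genes. The stricter form was found for 3 of the 7, Nfkb2, Nfkbia and Tnfaip3, against 1.89% of all genes. Windows of Nfkb2 overlap, and 1 match lies in 2 of them. A match is a run of letters and not a shown binding site. The window of Bcl3 is printed because its signal differed most between the arrays. Those of Nfkbia, Nfkb2 and Tnfaip3 follow because they hold the stricter form in genes whose ratios were under 2-fold or differed between probe sets. Capitals mark matches to the consensus, read 5′ to 3′ on the strand of the gene, and the 250 bases before the start are shown, with 12 more for Bcl3.
Bcl3, chr7:19822744-19823005, - strand: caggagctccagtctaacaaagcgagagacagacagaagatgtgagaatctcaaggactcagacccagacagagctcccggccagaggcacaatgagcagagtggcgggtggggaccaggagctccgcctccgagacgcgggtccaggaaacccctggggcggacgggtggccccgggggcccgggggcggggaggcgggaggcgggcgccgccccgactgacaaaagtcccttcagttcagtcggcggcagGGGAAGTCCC
Nfkbia, chr12:55492648-55492897, - strand: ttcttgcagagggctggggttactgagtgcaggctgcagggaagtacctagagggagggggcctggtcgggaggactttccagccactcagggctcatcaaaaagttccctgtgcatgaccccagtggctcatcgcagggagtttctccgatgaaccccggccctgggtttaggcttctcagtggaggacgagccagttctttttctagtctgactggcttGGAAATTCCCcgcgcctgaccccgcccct
Nfkb2, chr19:46304487-46304736, + strand: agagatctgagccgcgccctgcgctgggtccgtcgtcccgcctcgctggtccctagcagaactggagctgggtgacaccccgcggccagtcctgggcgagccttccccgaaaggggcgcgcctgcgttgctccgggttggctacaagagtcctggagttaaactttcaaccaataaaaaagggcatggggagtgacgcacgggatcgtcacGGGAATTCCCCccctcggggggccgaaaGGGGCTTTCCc
Tnfaip3, chr10:19015411-19015660, - strand: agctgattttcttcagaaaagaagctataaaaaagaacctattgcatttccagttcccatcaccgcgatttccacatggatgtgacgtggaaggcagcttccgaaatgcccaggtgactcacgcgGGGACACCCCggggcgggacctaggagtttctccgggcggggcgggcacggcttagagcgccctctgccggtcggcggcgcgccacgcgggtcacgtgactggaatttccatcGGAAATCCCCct
In Bcl3 the match fills bases 3 to 12 counted from the start as base 1, and the 250 bases before the start held none. In Nfkbia the match lies 29 to 20 bases before the start, and on the opposite strand it reads GGGAATTTCC. The first Nfkb2 window holds matches 39 to 29 and 11 to 2 bases before the start, and the Tnfaip3 window shown 125 to 116 and 12 to 3 bases before it.

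Among the subunits, Rela was higher on both ethylbenzene arrays by less than 2-fold. Rela encodes the subunit of the classical dimer that carries a transcription activation domain. Its signals were 4159 on E+E and 4033 on P+E, against 2491 on E+P and 2873 on P+P, so both ethylbenzene arrays lay above both PBS arrays. The log2 ratio was 0.77 for E+E against E+P and 0.53 for P+E against P+P. Nfkb2 encodes the precursor of the subunit of the alternative pathway, and its 2 probe sets went different ways. The brighter one, of a kind that can also hybridise to other transcripts, had 68.4 on E+E, 318.8 on P+E, 321.0 on E+P and 458.8 on P+P. The E+E array alone was low, with log2 ratios of -1.81 for E+E against E+P and -0.54 for P+E against P+P. With the E+E signal set to the filter level the first of these was -1.19. The dimmer Nfkb2 probe set, below the filter level on all 4 arrays, had 49.2 on E+E and 53.5 on P+E, against 26.8 on E+P and 35.7 on P+P. Its log2 ratios were 0.29 and 0.15, above 0 where those of the brighter one were below.

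Relb encodes the usual partner of the Nfkb2 product. Its 1 probe set had 103.3 on E+E, 143.2 on P+E, 82.2 on E+P and 111.3 on P+P, and its mean over the arrays lay under the filter level. The log2 ratios were 0.10 for E+E against E+P and 0.09 for P+E against P+P, and at this signal no difference could be shown. Rel, a further subunit found mainly in blood cells and no gene of the 10, had 95.4 on E+E and 253.6 on P+E, against 111.9 on E+P and 115.7 on P+P. Only its P+E signal stood above the others.

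Of the IkB genes, Nfkbia was less than 2-fold apart in both second-exposure ratios on each of its 5 probe sets. It encodes the classical inhibitor that is degraded and made anew when the pathway is active. The brightest probe set had 4872 on E+E and 5041 on P+E, against 4253 on E+P and 4512 on P+P. Both ethylbenzene arrays were slightly higher, by log2 ratios of 0.22 for E+E against E+P and 0.21 for P+E against P+P. The second probe set had 2015 on E+E and 1922 on P+E, against 1345 on E+P and 1834 on P+P, and the third 1612 and 2143, against 1423 and 1685, in the same order of arrays. The fourth had 1922 on E+E and 1321 on P+E, against 1437 on E+P and 1651 on P+P, and the fifth 936.0 and 672.8, against 610.8 and 1007. On these last 2 the P+P array lay above P+E. Over all 5 probe sets the ratio of E+E against E+P ran between 0.21 and 0.62 and was above 0 on each. That of P+E against P+P ran between -0.53 and 0.39 and was above 0 on 3 and below it on 2. The 5 probe sets read the same 4 RNA pools and are not replicates.

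Nfkbie encodes another cytoplasmic inhibitor, and its signals lay around the filter level. Its brighter probe set had 100.8 on E+E, 144.9 on P+E, 250.5 on E+P and 86.5 on P+P, so that the E+P array alone was high. The log2 ratios were -1.15 for E+E against E+P and 0.35 for P+E against P+P, or -0.89 and 0.12 with signals under the filter level raised to it. The dimmer probe set had 138.8, 150.6, 83.7 and 128.6 in the same order, and there the E+P array alone was low. Nfkbie was thus at least 2-fold lower in 1 ratio, on 1 probe set, and not with signals so raised. Nfkbib, the related inhibitor outside the 10 genes, had 1392 on E+E and 1194 on P+E, against 804.9 on E+P and 540.3 on P+P. Its log2 ratios were 0.80 for E+E against E+P and 1.10 for P+E against P+P. The second was short of 2-fold with the pseudocount at the 50th percentile, and Nfkbib had no probe set past the filter once those of kinds that can hybridise to other transcripts were left out.

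The nuclear IkB proteins are encoded by Bcl3, Nfkbiz and Nfkbid, and Bcl3 had the largest ratios of the 10 genes. Its protein binds dimers of DNA-binding subunits in the nucleus and can turn their target genes up or down. The Bcl3 probe set had 7920 on E+E and 6996 on P+E, against 1044 on E+P and 1390 on P+P. Both ethylbenzene arrays were far above both PBS arrays, and the lower ethylbenzene signal was several times the higher PBS signal. The difference was 7.63-fold for E+E against E+P and 5.04-fold for P+E against P+P, or 2.93 and 2.33 on the log2 scale. Set against E+P in place of the P+P array, the log2 ratio of P+E was 2.73. Bcl3 was read by 1 probe set, so no second one could be compared.

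Nfkbiz, whose protein is a nuclear cofactor for interleukin-6 and other secondary response genes, was higher by less than 2-fold on its brightest probe set. That probe set had 688.9 on E+E and 482.0 on P+E, against 401.7 on E+P and 305.9 on P+P. Both ethylbenzene arrays lay above both PBS arrays, and the log2 ratios were 0.72 for E+E against E+P and 0.52 for P+E against P+P. The second probe set had 502.4 on E+E and 299.1 on P+E, against 161.8 on E+P and 248.5 on P+P, with log2 ratios of 1.34 and 0.11. The third had 243.0 and 358.4 on the same ethylbenzene arrays, against 213.9 and 213.6 on E+P and P+P, with log2 ratios of 0.04 and 0.53. All 3 were above 0 in both ratios, but which ethylbenzene array was highest differed among them. Nfkbid, below the filter level, had 30.5 on E+E, 138.8 on P+E, 19.8 on E+P and 23.0 on P+P.

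**Figure D2:**
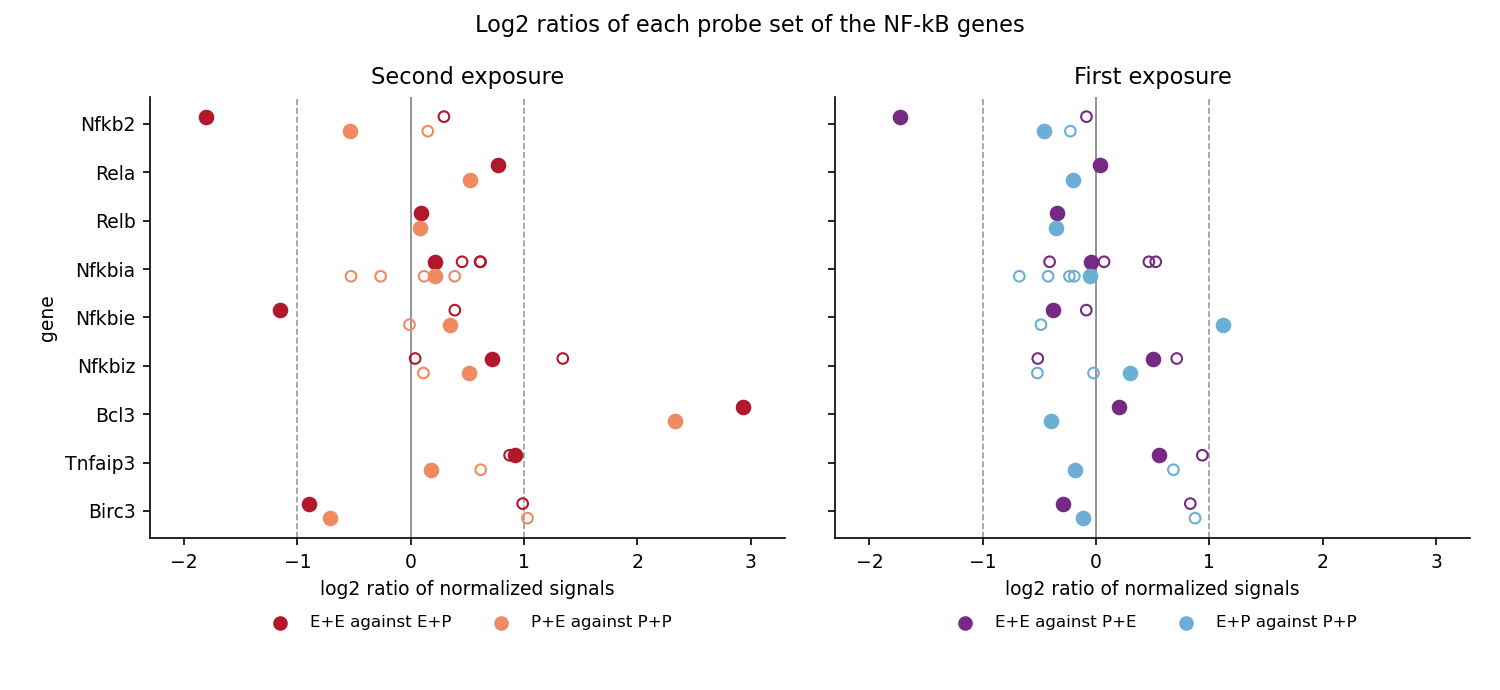
Log2 ratio of normalized signals (x axis) of each probe set, by gene, for the second exposure (left) and the first (right). Filled points are the probe set that stands for the gene, open points its other probe sets, and dashed lines mark 2-fold. Bcl3 stands at 2.93 and 2.33 on the left, and the probe sets of Nfkb2, Nfkbie and Birc3 lie on both sides of 0.

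Tnfaip3 encodes a ubiquitin-editing enzyme that shuts off signalling to NF-kB. Its brighter probe set had 370.2 on E+E and 243.0 on P+E, against 161.5 on E+P and 185.3 on P+P. Both ethylbenzene arrays were higher, by log2 ratios of 0.92 for E+E against E+P and 0.18 for P+E against P+P, short of 2-fold. With signals as deposited the first was 1.01, just past 2-fold. The dimmer probe set had 174.3 on E+E and 69.5 on P+E, against 67 on E+P and 23.9 on P+P, and its ratios were 0.87 and 0.62, but 3 of its 4 signals were below the filter level.

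Birc3 encodes a ubiquitin ligase that acts at the tumour necrosis factor receptor, and its 2 probe sets gave opposite directions. The brighter one had 443.7 on E+E and 544.3 on P+E, against 855.5 on E+P and 939.3 on P+P, with both ethylbenzene arrays below both PBS arrays. Its log2 ratios were -0.89 for E+E against E+P and -0.72 for P+E against P+P. The dimmer one had 210.1 on E+E and 99.5 on P+E, against 75.1 on E+P and 20.4 on P+P, with both ethylbenzene arrays above both PBS arrays. Its log2 ratios were 0.99 and 1.03, but 3 of the 4 signals lay below the filter level. Averaged over both probe sets, the ratios of Birc3 were 0.05 and 0.16, so no direction is given for this gene.

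The first exposure was compared 7 days later. Of the 8 genes past the filter, 1 was at least 2-fold higher for E+P against P+P (background 2.58%, or 5.31% for either direction), and this was Nfkbie, with a log2 ratio of 1.12 on its brighter probe set and -0.49 on the other. None was at least 2-fold lower there (background 2.73%). Between E+E and P+E, none was at least 2-fold higher (background 3.98%) and 1 was at least 2-fold lower (background 3.99%, or 7.96% for either direction). This was Nfkb2, at -1.73 on the brighter probe set, with E+E below the filter level, and -0.08 on the other. The log2 ratios of Bcl3 were 0.20 for E+E against P+E and -0.40 for E+P against P+P. Those of Rela were 0.03 and -0.21, and those of Nfkbia -0.05 and -0.05 on its brightest probe set. Over all Nfkbia probe sets they ran between -0.41 and 0.53 for E+E against P+E and between -0.68 and -0.05 for E+P against P+P.

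Whether earlier exposure went with another response was measured by the log2 ratio of E+E against E+P minus that of P+E against P+P. Of the 8 genes, 2 differed by at least 2-fold (background 15.1%), Nfkbie at -1.50 and Nfkb2 at -1.27. Their second probe sets were at 0.40 and 0.14. On the brightest probe set of each, the difference was 0.60 for Bcl3, 0.74 for Tnfaip3, 0.24 for Rela, 0.20 for Nfkbiz, 0.00 for Nfkbia and -0.18 for Birc3. Other probe sets past the filter differed from these. Those of Nfkbia were at 0.49, -0.17, 0.72 and 1.14, and those of Nfkbiz at 1.23 and -0.49, so both genes had a probe set past 2-fold. The dimmer ones of Tnfaip3 and Birc3, not past the filter, were at 0.26 and -0.04. Each difference holds the error of all 4 arrays, and none could be tested.

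Other genes of the pathway were read from lists ordered by role. The lists, which include the 10 genes, hold 88 genes, of which 80 were measured and 59 passed the filter. At least 2-fold higher by both second-exposure ratios were 9 of the 59, where 2.87% of all genes were, and none of the 59 was at least 2-fold lower by both (background 1.86%). The median log2 ratio of the 59 was 0.58 for E+E against E+P and 0.46 for P+E against P+P. The filter used the mean over all 4 arrays. Map3k8 and Ier3, among the 9, lay under the filter level on both PBS arrays and passed only through their ethylbenzene signals. With low signals at the filter level the count was 8. The lists were chosen with earlier results of these data known, so these counts describe them and are no test.

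**Figure D3:**
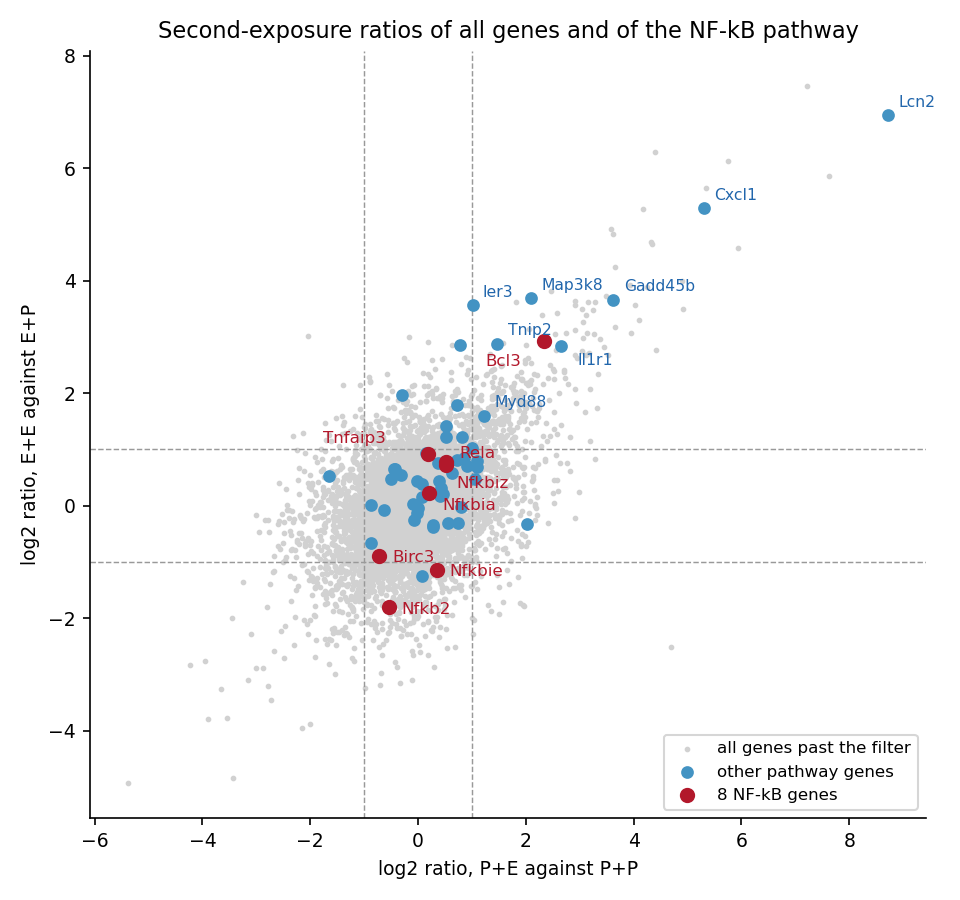
Log2 ratio of E+E against E+P (y axis) against that of P+E against P+P (x axis) for the 11513 genes past the filter (grey), the pathway genes (blue) and the 8 NF-kB genes described (red), with dashed lines at 2-fold. Bcl3 lies at 2.33 and 2.93 next to Il1r1, Nfkb2 and Nfkbie lie below the lower dashed line of the y axis, the other 5 red points lie inside the dashed lines of both axes, and the 2 axes share no array.

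Of 9 receptor genes past the filter, only Il1r1 was at least 2-fold higher by both ratios (background 2.87%). Il1r1 encodes the signalling receptor for interleukin-1. It had 10839 on E+E and 10697 on P+E, against 1516 on E+P and 1698 on P+P, with log2 ratios of 2.84 for E+E against E+P and 2.65 for P+E against P+P. At least 2-fold apart in 1 of the 2 ratios were Tnfrsf12a (2.86 for E+E against E+P and 0.78 for P+E against P+P), Tnfrsf1a, a receptor for tumour necrosis factor (1.78 and 0.73), Tlr4, the receptor for bacterial lipopolysaccharide (-0.34 and 2.03, or -0.34 and 1.25 with low signals at the filter level), and Tnfrsf11a (0.53 and -1.64, or 0.53 and -0.68 with low signals so set). Tlr4 and Tnfrsf11a had opposite signs in the 2 ratios. Of all genes past the filter, 13.7% were at least 2-fold apart for E+E against E+P and 13.2% for P+E against P+P. Tnfrsf1b was at 0.43 and 0.39. Il1rap, the co-receptor of Il1r1, was at 0.03 and -0.10.

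Of 16 kinase and adaptor genes past the filter, 2 were at least 2-fold higher by both ratios (background 2.87%). Myd88, the adaptor that interleukin-1 and Toll-like receptors share, had 3676 on E+E and 3033 on P+E, against 1210 on E+P and 1311 on P+P, with log2 ratios of 1.60 and 1.23. Map3k8, a kinase that links NF-kB precursor proteins to MAP kinases, had 659.4 on E+E and 630.5 on P+E, against 10.7 on E+P and 104.2 on P+P. With its low signals at the filter level its log2 ratios were 2.12 for E+E against E+P and 2.06 for P+E against P+P. At least 2-fold apart in 1 of the 2 ratios were Tab1 (1.96 for E+E against E+P and -0.30 for P+E against P+P), Traf6 (1.02 and 0.996, just short of 2-fold in the second), Tab2 (0.68 and 1.09) and Ikbke (-1.25 and 0.07). With its E+P signal at the filter level, Tab1 was at 1.41 and -0.30. The background for either direction was 13.7% for E+E against E+P and 13.2% for P+E against P+P. Of the genes of the kinase complex itself, Chuk was not analysed here, Ikbkb was at -0.26 and -0.08, and Ikbkg was at 0.16 and 0.07. Of the ligand genes, 2 of 8 measured passed the filter and neither was 2-fold apart in either ratio. Il1b was at 0.94 and 0.14 and Il1a at -0.30 and 0.56, while Tnf had signals between 12.3 and 77.1, all under the filter level.

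Among 9 feedback inhibitor genes past the filter, Tnip2 was at least 2-fold higher by both ratios (background 2.87%). Its protein binds the Tnfaip3 product. It had 743.0 on E+E and 589.9 on P+E, against 62.2 on E+P and 172.7 on P+P, with log2 ratios of 2.88 (2.28 with E+P at the filter level) and 1.47. Zc3h12a, which encodes an RNase that degrades cytokine messages, was at 1.41 and 0.51, Nlrc5 at 0.70 and 0.90, Tnip1 at -0.02 and 0.79, Cyld at 0.31 and 0.42, Birc2 at 0.64 and -0.44 and Otud7b at 0.66 and -0.43. The last 2 had opposite signs in the 2 ratios. With low signals at the filter level Zc3h12a was at 1.07 and 0.43. Tnip3 and Traf3 were not analysed here. Traf1 and Irak3 did not pass the filter. Traf1 was at -0.31 and 0.34, and Irak3, an inhibitor of interleukin-1 receptor signalling, was at 1.07 and 1.74, or at 0.33 and 0.53 with low signals at the filter level.

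Of 15 typical target genes past the filter, 4 were at least 2-fold higher by both ratios (background 2.87%). They were Lcn2, an iron-sequestering acute phase gene (6.95 for E+E against E+P and 8.72 for P+E against P+P), the chemokine gene Cxcl1 (5.29 and 5.30), the stress gene Gadd45b (3.66 and 3.62) and the early response gene Ier3 (3.56 and 1.01). With low signals at the filter level Ier3 was at 2.34 and 0.86, short of 2-fold in the second, and Lcn2 was at 6.95 and 8.50. The other 11 were not 2-fold apart in both. Icam1, an adhesion molecule gene, was at 1.22 and 0.52, the survival gene Bcl2l1 at 1.22 and 0.82, and the chemokine gene Cxcl10 at 0.47 and 1.05. Tnfaip2 was at 0.58 and 0.63, Sod2 at 0.38 and 0.07 and Irf1 at -0.35 and 0.27. The list medians were 0.58 and 0.52.

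**Figure D4:**
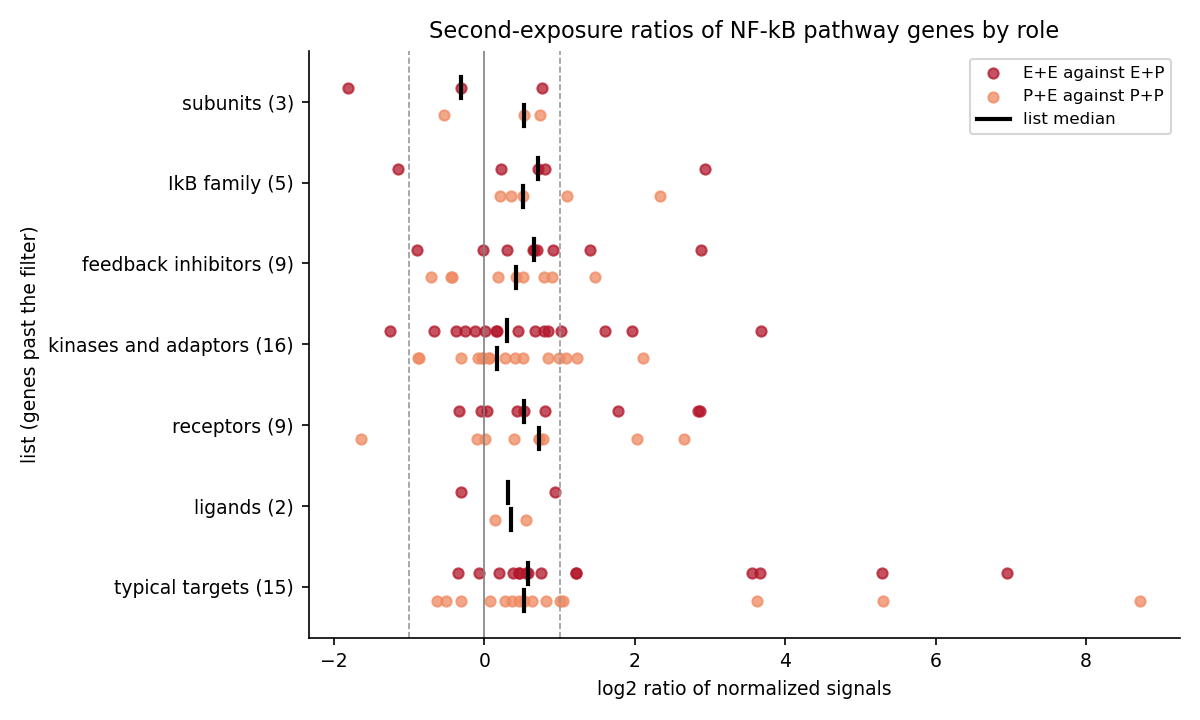
Log2 ratio (x axis) of each pathway gene past the filter, by role, for E+E against E+P (dark red, upper row of each list) and P+E against P+P (orange, lower row). Black bars are list medians and dashed lines mark 2-fold. List medians lie between -0.30 and 0.73, and the point farthest right among the IkB genes is Bcl3, at 2.93 and 2.33.

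The genes whose profile over the 4 arrays was most like that of Bcl3 were found by the distance between log2 values centred on each gene's mean. Clone and predicted names were left out, and the nearest of the 10977 genes compared was Il1r1, at a distance of 0.24. Tubb2a, a beta-tubulin gene, followed at 0.32, with 5330 on E+E and 4906 on P+E, against 616.6 on E+P and 707.1 on P+P. Leap2, which encodes a liver-expressed peptide, was next at 0.33, with 14796 and 13923 on the same ethylbenzene arrays, against 2556 on E+P and 3336 on P+P. In all, 13 genes lay within 0.5 of Bcl3. Likeness over 4 arrays rests on few values.

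**Figure D5:**
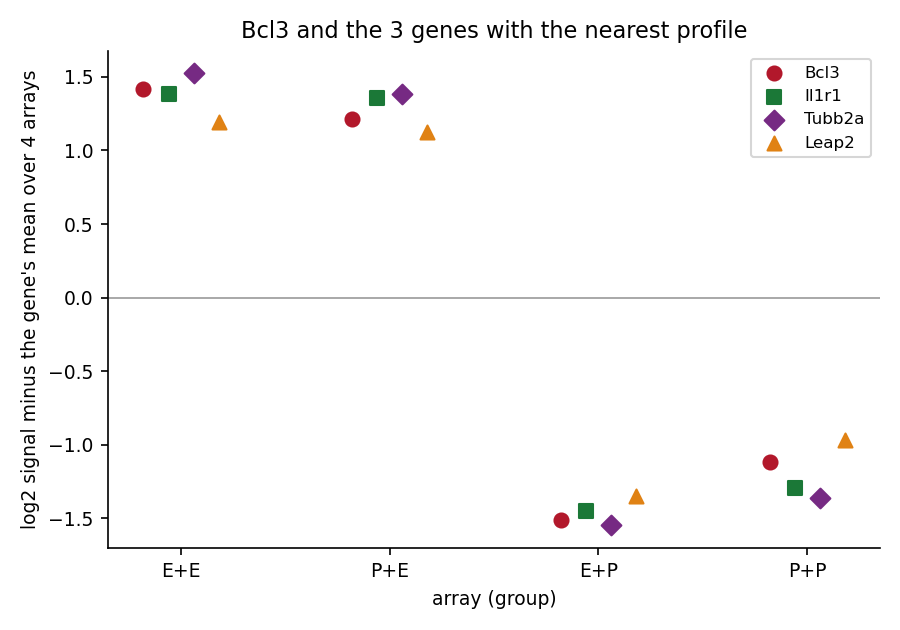
Log2 signal minus the gene's own mean over the 4 arrays (y axis) on each array (x axis) for Bcl3, Il1r1, Tubb2a and Leap2, 1 point for each gene and array. The 4 genes lie together on each array, above 1 on E+E and P+E, and the distances of the 3 others from Bcl3 were 0.24, 0.32 and 0.33.

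Markers of other cell types moved with the second exposure in part. The summed signal of 8 measured neutrophil markers was 6575 on E+E and 4053 on P+E, against 729.0 on E+P and 1248 on P+P. On the ethylbenzene arrays most of that sum was S100a8 and S100a9, with log2 ratios of 3.62 and 4.83 for E+E against E+P and 3.29 and 3.62 for P+E against P+P. The granule genes Camp, Ngp, Ltf, Mpo and Elane were at 0.05, 1.33, 1.49, 0.05 and 1.48 for E+E against E+P. For P+E against P+P they were at -1.51, -0.89, -1.10, -1.41 and 0.04. With low signals at the filter level, Ltf, Mpo and Elane were at 0, 0 and 0.01 for E+E against E+P. Camp, Ltf and Mpo were then at -0.69, -0.47 and -0.33 for P+E against P+P. Cxcr2 was at 0.13 for E+E against E+P and 0.61 for P+E against P+P. Ltf, Mpo, Elane and Cxcr2 did not pass the filter. The summed signal of 4 pancreatic acinar markers was 4098 and 3992, against 401.8 and 383.7. Kupffer cell markers, 8 genes, summed to 12367 on E+E, 10458 on P+E, 19094 on E+P and 11966 on P+P. Monocyte markers, 4 genes, summed to 2027 and 1660 on the ethylbenzene arrays, against 765.1 and 796.7. Most of that sum was Plac8, with log2 ratios of 1.31 for E+E against E+P and 1.25 for P+E against P+P. Ccr2 was at 0.83 and -0.03, Chil3 at 0.48 and 0.05, and F13a1, not past the filter, at 1.64 and 0.92. The sums of T cell markers (5 genes, between 290.7 and 434.4), B cell markers (4 genes, between 607.9 and 980.2), sinusoidal endothelial markers (6 genes, between 7266 and 8398) and stellate cell markers (5 genes, between 12960 and 16325) differed by less than 2-fold between any of the 4 arrays. Single genes in these sums differed more. The endothelial gene Lyve1 had 1717 on E+E and 1276 on P+E, against 395.6 on E+P and 399.5 on P+P, at least 2-fold higher by both ratios (2.01 and 1.56). Cd8a, Pax5 and Col1a1 were lowest on P+E, at 54.3, 142.7 and 137.4, and so were the stellate genes Lrat, Reln and Des. The other T cell, B cell and stellate markers were not lowest on P+E. Among them, Cd3e was highest there, at 176.9, and Cd79b and Ms4a1 had 272.6 and 164.2. The part of these cells in the signals of Bcl3 and the other genes was not tested.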

How the data were processed

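Liver RNA pooled by group was measured on 4 Affymetrix arrays, and per the labels 10 µg of pooled RNA was used for each. The deposited values were linear probe set intensities. The authors had scaled them, as the trimmed mean (2% left out at each end) came to 500.0 for each array. The software that summarised the probes is not given in the sources used here. Groups came from the sample labels.

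Log2 medians lay 0.24 apart between arrays, which led to quantile normalization. Before log2, the 25th percentile of deposited signals (43.2) was added as a pseudocount. Probe sets took gene names from the platform annotation (34945 with 1 gene, 932 with several and unused), updated through Entrez identifiers where a RefSeq table held them (34741). Each gene is shown by whichever of its probe sets had the largest mean log2 value, and passed the low-level filter where that mean was no less than the median over probe sets (120.0 as a signal). A call is a difference of 2-fold or more, a rule of size with no test. Signals raised to the filter level give bounds. Probe sets with _s_at or _x_at identifiers can hybridise to several transcripts.

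By rule, the text names the 10 genes, all genes of the subunit, IkB and feedback lists, pathway genes called in 1 direction by both second-exposure ratios, and the 3 profiles nearest to Bcl3. The other receptor, kinase, ligand and target genes, and the single marker genes, were added after their values were seen. The genes and lists were chosen with earlier results of these data known. Promoters came from a RefSeq table of GRCm38.p6. Protein sequences were planned for but not used here. In all, 9 alternative settings were listed at the start and 2 were added later, and the steps were tested on simulated arrays. Python 3.11.15, numpy 2.4.6 and pandas 2.3.3 were used.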

Additional observations from a re-analysis of the deposited data

Results flagged for a closer look

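Several genes had ratios of opposite sign in mice of different exposure history. The difference was not tested for any of them, since each group had 1 array. For the second exposure this held for Nfkbie, with a log2 ratio of -1.15 for E+E against E+P and 0.35 for P+E against P+P, a difference of -1.50. For the first exposure it held for Nfkbie (-0.38 for E+E against P+E and 1.12 for E+P against P+P, a difference of -1.50), Tnfaip3 (0.56 and -0.18, a difference of 0.74), Bcl3 (0.20 and -0.40, a difference of 0.60) and Rela (0.03 and -0.21, a difference of 0.24). The signals of Nfkbie lay around the filter level, and its second probe set gave a difference of 0.40. The dimmer Tnfaip3 probe set, not past the filter, was at 0.94 for E+E against P+E and 0.68 for E+P against P+P. With the mean of all probe sets Tnfaip3 was at 0.75 and 0.25, so its opposite signs rest on the brighter probe set.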

How the results depend on the processing

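No paired analysis was possible because each group had 1 array. Bcl3 kept its direction and stayed past 2-fold in both second-exposure ratios under every alternative run, between 2.82 and 2.97 for E+E against E+P and between 2.23 and 2.73 for P+E against P+P. No 2-fold ratio of the 10 genes changed sign where it was computed. No alternative showed Nfkb2 or Nfkbie by its dimmer probe set alone among genes past the filter, and these probe sets were above 0 for E+E against E+P (0.29 and 0.39). The count of genes 2-fold apart on P+E against P+P was 1 throughout. For E+E against E+P it was 3, but 4 with signals as deposited or the pseudocount at the 10th percentile (Tnfaip3 added), 2 with the pseudocount at the 50th percentile or low signals at the filter level (Nfkbie lost), 2 without _s_at and _x_at probe sets (Nfkb2 lost), and 1 (Bcl3) with the mean of all probe sets or the filter at the 75th percentile. For E+P against P+P it was 1, but 0 with the pseudocount at the 50th percentile, low signals at the filter level, the mean of all probe sets or the 75th percentile filter. For E+E against P+E it was 1, but 0 with the mean of all probe sets, without _s_at and _x_at probe sets or with the 75th percentile filter. The difference of ratios was 2-fold for 2 genes, for 1 (Nfkbie) with low signals at the filter level or without _s_at and _x_at probe sets, and for 0 with the 50th percentile pseudocount, the mean of all probe sets or the 75th percentile filter. The stricter filter left 5 of the 10 genes, without Nfkb2, Nfkbie and Tnfaip3. The alternatives with E+P in place of the P+P array and with probe sets chosen by the arithmetic mean were added after the data were seen, and neither changed a count of the 10 genes. Of the 59 pathway genes, 9 were higher in both ratios, and between 6 and 10 under the alternatives. Ratios of genes near the filter level (Nfkb2, Nfkbie, Relb) are limited by low signal over background, and the number of arrays limits the precision of all.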
